A study of Mus musculus with 21 samples.

Results

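Extracellular signal-regulated kinase (ERK) signalling is held in check by genes that the pathway itself switches on. Growth factor receptors activate the GTPase Ras, Ras activates the kinases RAF and MEK, and MEK phosphorylates ERK. Dual-specificity phosphatases remove the phosphates from ERK again, while the Sprouty and Spred proteins act upstream, between the receptor and RAF. In macrophages the colony-stimulating factor receptors feed this pathway, and the level of these feedback transcripts is commonly read as a record of recent signalling. Here RAS means renal artery stenosis, the narrowing of a kidney's artery, and Ras means the GTPase.

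The feedback genes described are Dusp2, Dusp4, Dusp5 and Dusp6, which encode phosphatases, and Spry1, Spry2 and Spred1, which encode upstream inhibitors. They are 7 of the 34236 gene symbols in the count table, and all 7 were counted. The set was chosen by its read counts in these same 21 libraries, since earlier results on the differences between populations and with RAS were known when it was put together. Levels and fold changes of the 7 genes are therefore given as a description without p-values, and nothing is concluded from how many of them pass a threshold. A member described as called, or as having risen, fell on that side of the threshold in values that were known when it was chosen. Statements that groups overlapped or did not are descriptions too, and the share of all genes so separated was not computed.

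RNA came from macrophages sorted by F4/80 and CD64, after a gate on live CD45+ cells that removed T, B and NK cells, erythrocytes and granulocytes, from kidneys of male C57BL/6J mice, labelled as 24 weeks old with a sort time of 5 hours. CD11chi and CD11clo cells are labelled as monocyte-derived macrophages and KRM are kidney resident macrophages. The populations were separated by CD11b and CD11c. A cuff on the right renal artery produced RAS, and in Sham operations the artery was isolated without a cuff. CD11chi had 3 Sham and 4 RAS libraries, CD11clo had 3 Sham and 4 RAS libraries, and KRM had 4 Sham and 3 RAS libraries. All groups share strain, sex and age. The labels do not say whether a library is 1 animal or a pool, so the spread between libraries may be partly technical.

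Libraries held 6891148 to 18592395 counts and 14615 to 17718 counted genes. All 8 macrophage markers, among them Csf1r, C1qa and Adgre1, were counted in every library, and their summed level was 2749 to 19348 CPM, read counts scaled to a common library size. Markers of other kidney cells were uneven. The 8 tubule markers summed to 3538 and 4595 CPM in KRM RAS replicates 3 and 2, to 7210 CPM in CD11chi Sham replicate 3 and to 2248 CPM in CD11clo Sham replicate 3, against 13.1 to 1126 CPM in the other 17 libraries. The 5 fibroblast and pericyte markers summed to 324 and 374 CPM in KRM RAS replicates 2 and 3 but to 33.9 CPM in KRM RAS replicate 1. The 5 T and NK cell markers summed to 165, 21.6 and 19.3 CPM in KRM RAS against 1.27 to 2.41 CPM in KRM Sham, without overlap. The same held in CD11chi (35.5 to 121 CPM in RAS against 1.17 to 15.4 CPM in Sham) and in CD11clo (4.29 to 20.7 against 0.517 to 2.65 CPM). The macrophage marker sum of KRM was 7350 to 12003 CPM in RAS against 13848 to 19348 CPM in Sham. Tubule cells, fibroblasts, pericytes, endothelium and T and NK cells are types the sort gate would remove, and the part of their transcripts in the RAS values below was not tested. The counts of KRM RAS replicate 1 did not correspond to its column in a second deposited table (r = 0.09). Which column belongs to the labelled library is not settled. In bulk samples, fewer cells of a type and less RNA per cell cannot be told apart.

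Dusp5 encodes a nuclear phosphatase that acts on ERK and holds it in the nucleus. It showed the widest range of the 7 genes between the populations. KRM from Sham kidneys held 6.26, 4.02, 6.53 and 9.10 CPM of Dusp5. CD11chi from Sham kidneys held 155, 100 and 45.6 CPM, and CD11clo from Sham kidneys held 232, 299 and 179 CPM. Every KRM Sham library lay below every library of both other populations.

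The gene lies on chromosome 19 from 53529109 to 53542431 on the forward strand of GRCm38 in GENCODE vM21. An antisense gene, AC137853.2, overlaps it, and since the library kit does not mark strand, reads of the pair cannot be told apart. The same limit holds for Spry1, where Gm42922 lies on the other strand. The 250 bases before the RefSeq start of Dusp5 (GRCm38.p6, chr19:53528895-53529144, forward strand) are shown because this gene carries the main differences, and the capitals mark matches to the CArG box, the binding motif of serum response factor. The same stretch before Dusp2 (chr2:127335909-127336158, forward strand), which followed Dusp5 most closely among the 7 genes, and before Spry1 (chr3:37639697-37639946, forward strand), which had the largest RAS fold change in KRM, are shown for comparison.
Dusp5: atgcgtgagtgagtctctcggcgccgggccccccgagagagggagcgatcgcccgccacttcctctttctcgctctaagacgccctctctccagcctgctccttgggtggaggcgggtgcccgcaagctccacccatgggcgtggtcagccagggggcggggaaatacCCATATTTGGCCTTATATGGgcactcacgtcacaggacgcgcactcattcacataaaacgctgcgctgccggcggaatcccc
Dusp2: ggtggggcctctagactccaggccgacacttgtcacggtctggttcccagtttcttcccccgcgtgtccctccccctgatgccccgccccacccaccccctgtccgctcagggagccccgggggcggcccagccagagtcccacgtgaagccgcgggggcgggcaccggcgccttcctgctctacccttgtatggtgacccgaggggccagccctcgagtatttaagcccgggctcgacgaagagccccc
Spry1: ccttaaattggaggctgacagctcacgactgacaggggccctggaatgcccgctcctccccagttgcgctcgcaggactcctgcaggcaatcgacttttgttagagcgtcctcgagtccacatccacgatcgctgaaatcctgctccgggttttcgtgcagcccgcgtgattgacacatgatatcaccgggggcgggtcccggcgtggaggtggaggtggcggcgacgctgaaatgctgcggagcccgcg

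Windows from 250 bases before to 50 bases after the start were searched on both strands for 4 motifs. These were the CArG box, the core of ETS factor sites CCGGAA, the AP-1 site TGANTCA and the cAMP response element TGACGTCA. RefSeq windows were found for 6 of the 7 genes and not for Dusp4. Dusp5 held 2 adjoining CArG boxes, beginning 82 and 72 bases before the start, and none of the other 3 motifs. Of all 32851 windows, 1.63% held a CArG box and 0.0183% held at least 2. Spry2 held 1 CCGGAA, which 14.9% of all windows held. Windows of Dusp2, Dusp6, Spry1 and Spred1 held none of the 4 motifs. Of all windows, 7.81% held TGANTCA and 1.79% held TGACGTCA. A match is a description of letters in this window only.

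**Figure D1:**
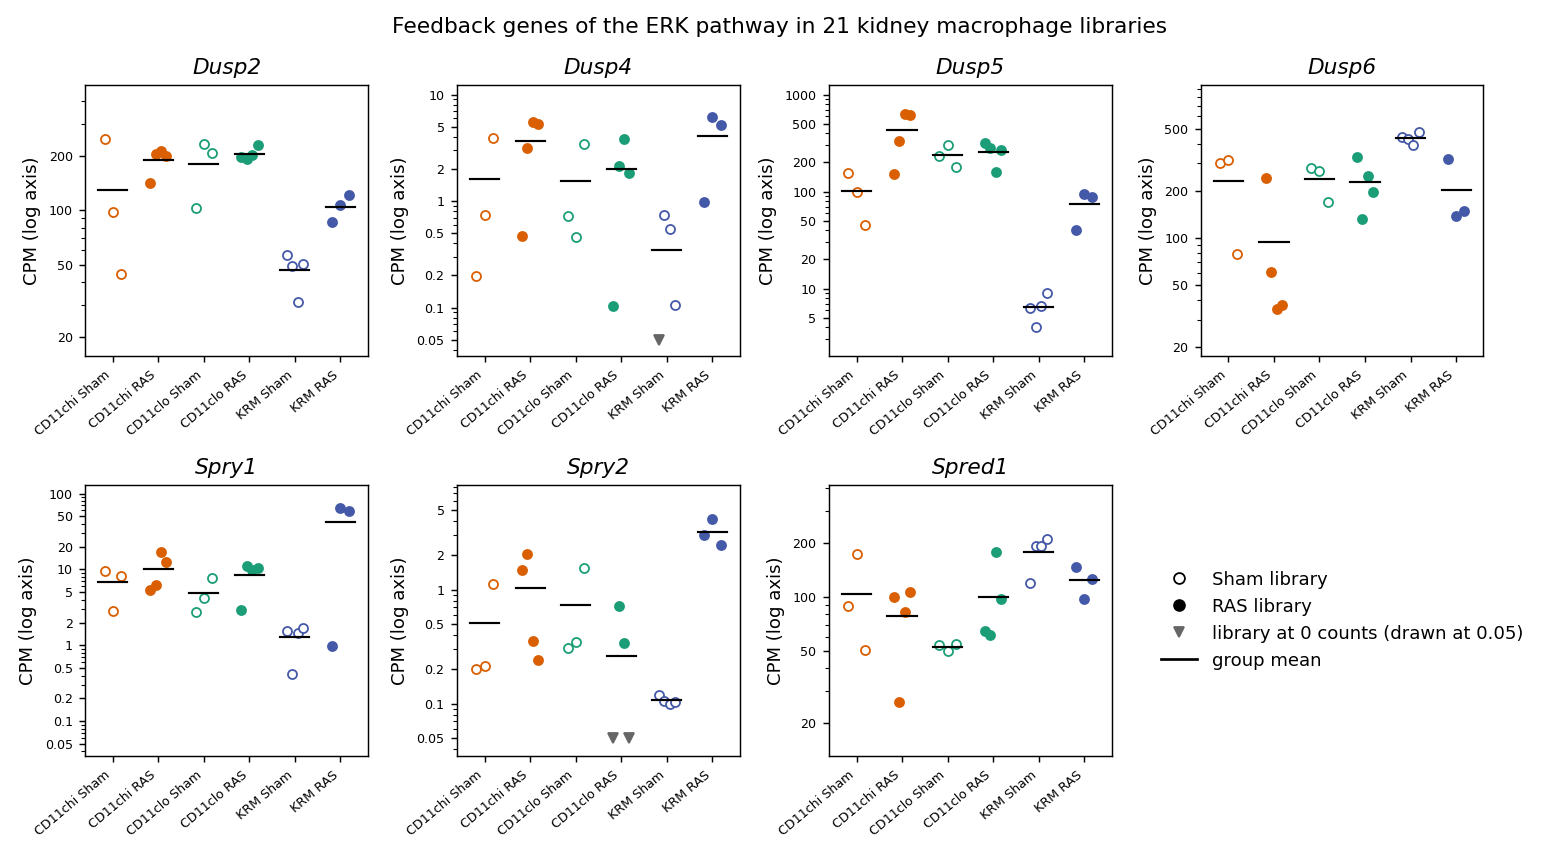
CPM of the 7 feedback genes in each of the 21 libraries on a log axis, with Sham libraries as open circles, RAS libraries as filled circles, libraries at 0 counts as grey triangles and group means as bars. Dusp5 is lowest in the 4 KRM Sham libraries at 4.02 to 9.10 CPM, and Spry1 in KRM RAS splits into 1 library at 0.98 CPM and the others at 59.1 and 65.5 CPM.

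The first question was how resident macrophages of Sham kidneys differ from the monocyte-derived populations. Against CD11clo, KRM held less Dusp5 (log2 fold change -5.21 ± 0.30, SE), less Dusp2 (-1.97 ± 0.29) and less Spry1 (-1.92 ± 0.55), and more Spred1 (1.73 ± 0.20) and Dusp6 (0.84 ± 0.20). Of the 7 genes, 5 passed the filter on low counts and all 5 were called at an adjusted p under 0.05 by edgeR's quasi-likelihood test, while 41.8% of all 12399 genes tested were called. Dusp4 and Spry2 did not pass the filter. Replicate numbers were taken as paired in the Sham libraries from their correlations, which the labels do not state. With the replicate block 4 of the 5 stayed called, Spry1 being the exception, beside 34.3% of all genes.

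Dusp2 is a nuclear phosphatase of activated leukocytes. It measured 56.8, 49.2, 31.3 and 50.3 CPM in KRM Sham, against 103, 231 and 206 CPM in CD11clo Sham. These groups did not overlap. In CD11chi Sham it measured 246, 97.7 and 44.6 CPM, and the library at 44.6 CPM, replicate 3, fell inside the KRM range. That library also carried the highest tubule marker sum of the series, whose part in this value was not tested.

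Dusp6 is a cytoplasmic phosphatase selective for ERK and is a widely used readout of steady ERK activity. Unlike Dusp5, it was highest in KRM of the 3 Sham populations. KRM Sham held 446, 432, 395 and 477 CPM, above all other 17 libraries. CD11clo Sham held 282, 269 and 169 CPM and CD11chi Sham held 301, 315 and 79.3 CPM. The latter pair of groups overlapped and had means of 240 ± 62 (SD, n = 3) and 232 ± 132 CPM (SD, n = 3).

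Spred1, which brings the Ras inhibitor neurofibromin to the membrane, was also high in KRM Sham at 119, 191, 192 and 210 CPM. CD11clo Sham was narrow, at 53.8, 50.2 and 54.7 CPM, and lay wholly below. CD11chi Sham, at 88.8, 173 and 50.8 CPM, overlapped with both.

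The Sprouty genes and Dusp4 were low in every Sham group. Spry1, an inhibitor of receptor signalling to Ras, held 1.56, 0.42, 1.45 and 1.67 CPM in KRM Sham, 2.79, 4.17 and 7.63 CPM in CD11clo Sham and 9.60, 2.87 and 8.28 CPM in CD11chi Sham. Its KRM libraries lay below all others from Sham kidneys. Spry2 had only 1 or 2 counts in each KRM Sham library and at most 14 counts in any Sham library. Dusp4, a nuclear phosphatase related to Dusp2, ranged from 0 counts to 3.89 CPM in the 10 Sham libraries. Its highest values, 3.89 and 3.43 CPM, were in replicate 3 of CD11chi and of CD11clo.

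Against CD11chi in Sham kidneys, Dusp5 was again lower in KRM (-3.99 ± 0.44). It was the 1 gene called of 5 that passed the filter, with 5.12% of 12404 genes called. Fold changes of the others were -1.502 ± 0.51 for Dusp2, -2.49 ± 0.59 for Spry1, 0.89 ± 0.42 for Dusp6 and 0.74 ± 0.40 for Spred1. EdgeR called none of these, while DESeq2 called 3 members in this comparison, beside 12.1% of all genes. Leaving out CD11chi Sham replicate 3 raised the count of called members to 4, which were Dusp2, Dusp5, Dusp6 and Spry1, beside 13.6% of all genes in that fit. CD11chi and CD11clo from Sham kidneys differed by -1.19 ± 0.43 in Dusp5, against a median over all genes of 0.13, and their Dusp5 values did not overlap. None of the 5 members tested was called there, with 1.52% of 12105 genes called.

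Levels can be compared between genes once divided by exon length. Per kilobase of merged exons, KRM Sham held 140 CPM of Dusp6, 26.2 of Spred1, 23.4 of Dusp2, 2.62 of Dusp5, 0.439 of Spry1, 0.127 of Dusp4 and 0.052 of Spry2. In CD11chi RAS the order began with Dusp5 at 175 CPM per kilobase, followed by Dusp2 at 94.5, Dusp6 at 29.9 and Spred1 at 11.6. Dusp6 led in all 4 KRM Sham libraries, and Dusp5 led in CD11chi RAS replicates 2 to 4. In CD11chi RAS replicate 1 Dusp6 led at 77.0 CPM per kilobase, with Dusp2 at 70.5 and Dusp5 at 61.6.

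**Figure D2:**
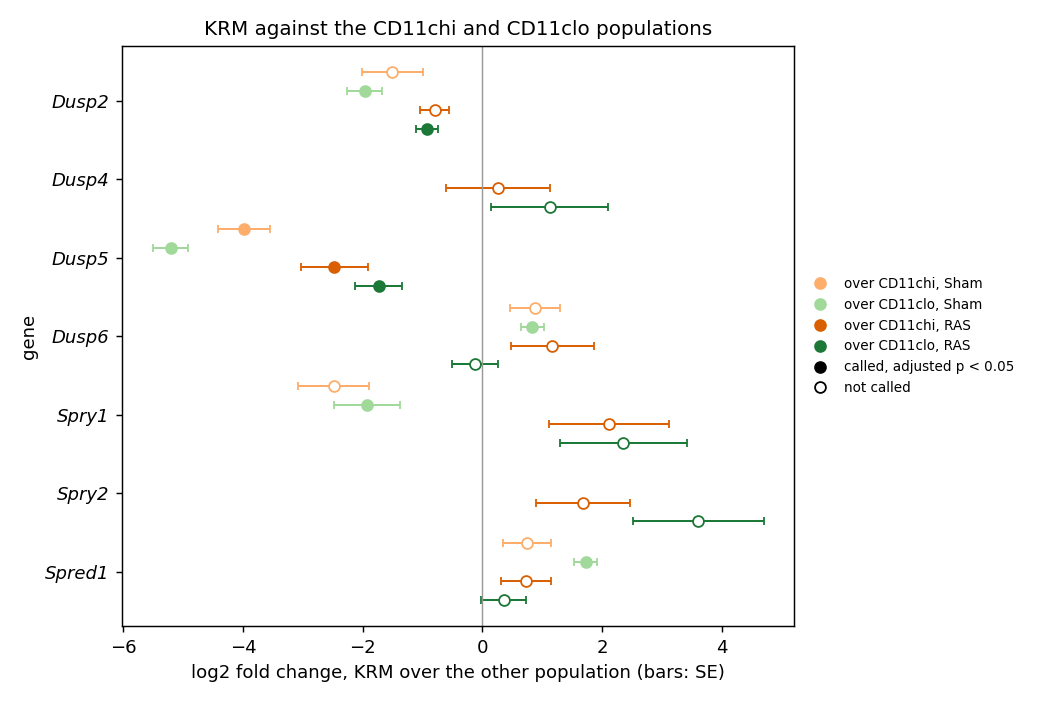
Log2 fold change of KRM over CD11chi (orange) and CD11clo (green) in Sham (light) and RAS (dark) kidneys, with SE bars, for each feedback gene that passed the filter; filled points were called at an adjusted p under 0.05. Dusp5 is lower in KRM in all 4 comparisons, from -5.21 to -1.74, while Spry1 is on the left in Sham kidneys and on the right in RAS kidneys.

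The next question was what RAS changed within each population. In KRM, Dusp5, Dusp2, Spry1 and Spry2 rose, making 4 members called of 7 that passed the filter, with 9.7% of 12852 genes called. Among all genes called in this comparison, 998 were higher and 249 lower in RAS. Dusp4 (3.56 ± 0.95) and Dusp6 (-1.01 ± 0.29) had groups that did not overlap but were not called by edgeR, and neither was Spred1 (-0.42 ± 0.22). Leaving out KRM RAS replicate 1 made the count 6, with only Spred1 not called, beside 50.2% of all genes in that fit. Leaving out any 1 of the other 6 libraries made it 1 to 3, beside 10.6% of all genes without KRM Sham replicate 3 and 0.204% to 0.338% in the other 5 fits. Spry2 was called in each of these 7 fits. With the replicate block, whose numbers were not taken as paired here, no member was called, beside 0.327% of all genes. Spry2 and Dusp4 passed the filter only through their KRM RAS libraries.

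Dusp5 in KRM RAS was 39.97, 95.04 and 87.4 CPM. All 3 values exceeded the highest KRM Sham value of 9.10 CPM, and the fold change was 3.63 ± 0.37 on the log2 scale. It was called in 6 of the 7 fits that left out a library and not without KRM Sham replicate 1. Tubule marker sums were 623, 4595 and 3538 CPM in these libraries against 122 to 1126 CPM in KRM Sham, and their part in the Dusp5 value was not tested.

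Dusp2 in KRM RAS was 85.9, 106 and 121 CPM, again above every KRM Sham library. The fold change was 1.27 ± 0.22 on the log2 scale. It was called in 2 of the 7 fits that left out a library, those without KRM RAS replicate 1 and without KRM Sham replicate 3.

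Spry2, the closest relative of Spry1 among the members, had 31, 48 and 27 counts in KRM RAS, or 3.04, 4.17 and 2.47 CPM. KRM Sham had 5 counts in its 4 libraries together against 106 in the 3 RAS libraries, a ratio of 34.2 per total count (exact 95% interval 14.2 to 108, counting error only). KRM RAS replicate 1 lay between the other two. That library had the lowest tubule sum and the highest T and NK cell sum of the 3, 623 and 165 CPM, and the part of such transcripts in the Spry2 value was not tested.

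Spry1 behaved differently within the group. KRM RAS replicates 2 and 3 held 65.5 and 59.1 CPM and replicate 1 held 0.98 CPM, inside the KRM Sham range of 0.42 to 1.67 CPM. The fold change of 5.13 ± 1.15 on the log2 scale was lost as a call on leaving out any 1 library other than KRM RAS replicate 1. Replicates 2 and 3 are those with fibroblast and pericyte marker sums of 324 and 374 CPM, against 33.9 CPM in replicate 1, and with endothelial marker sums of 153 and 129 CPM against 14.5 CPM. All 5 fibroblast and pericyte markers reached 1 CPM in replicates 2 and 3. Of these markers, the pericyte genes Pdgfrb and Rgs5 were at 33.6 and 56.6 CPM in replicate 2 and at 40.3 and 41.8 CPM in replicate 3, against 0.196 and 0.0982 CPM in replicate 1. In the other 18 libraries they were at or under 9.38 and 5.15 CPM. The part of these cells in the Spry1 value was not tested.

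Dusp4 in KRM RAS was 0.98, 6.16 and 5.22 CPM, with replicate 1 again the lowest. KRM Sham held 0, 0.74, 0.55 and 0.10 CPM. Dusp6 in KRM RAS was 320, 139 and 148 CPM, where replicate 1 stood between the KRM Sham libraries and the other two. Spred1, at 147, 97.6 and 126 CPM, overlapped with KRM Sham through the Sham library at 119 CPM.

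**Figure D3:**
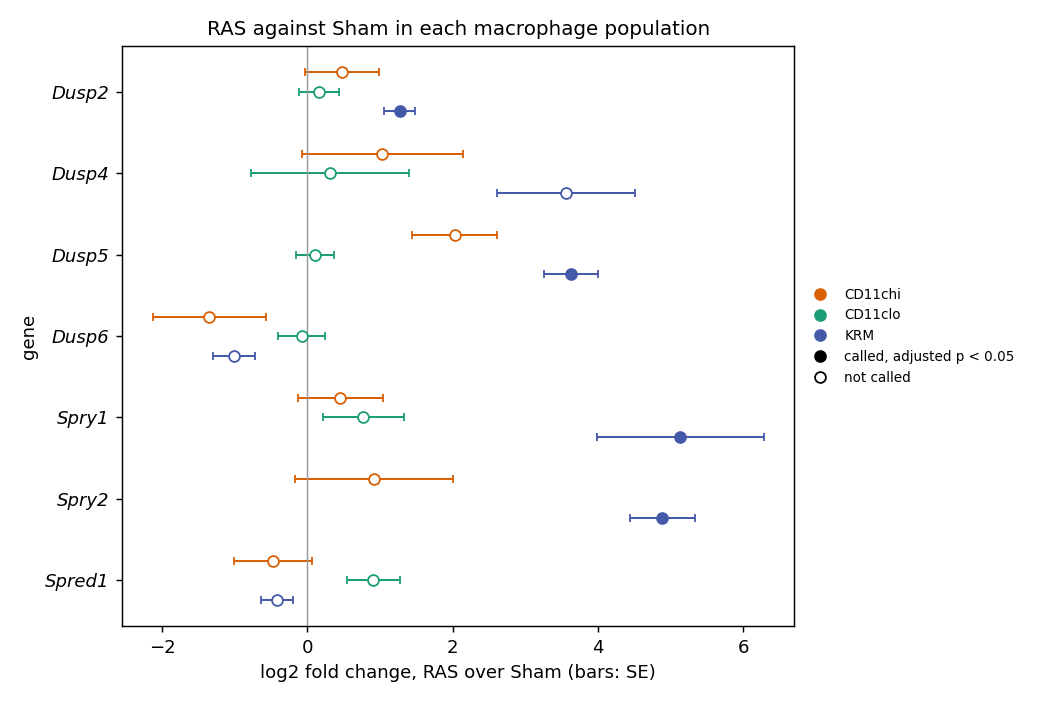
Log2 fold change of RAS over Sham in CD11chi (orange), CD11clo (green) and KRM (blue) with SE bars for each feedback gene that passed the filter; filled points were called at an adjusted p under 0.05. The 4 called points, Dusp2, Dusp5, Spry1 and Spry2, are all from KRM.

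No member was called for RAS against Sham in CD11chi, and none of the 12739 genes tested was (0% by edgeR, with 1247 genes at an unadjusted p under 0.05 and 190 called by DESeq2). Dusp5 in CD11chi RAS was 152, 335, 630 and 616 CPM, and replicate 1 lay below the highest Sham library at 155 CPM. Its fold change was 2.03 ± 0.59, and it was the only member that DESeq2 called. Dusp6 in CD11chi RAS was 241, 60.7, 34.996 and 37.4 CPM with a fold change of -1.35 ± 0.78. Replicate 1 again stood with the Sham libraries, which held 301, 315 and 79.3 CPM. The CD11chi RAS libraries with the most Dusp5 were those with the least Dusp6. These were replicates 3 and 4, whose 5 dendritic cell markers summed to 4372 and 4649 CPM, against 317 to 1702 CPM in the other CD11chi libraries. Cd209a made up most of these sums. It reached 4263 CPM in CD11chi RAS, where Flt3, Zbtb46, Xcr1 and Clec9a reached at most 193, 167, 36.6 and 43.0 CPM. The part of dendritic cells in the Dusp5 and Dusp6 values was not tested.

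Dusp2 in CD11chi RAS was 141, 203, 214 and 199 CPM, within the Sham range. Spred1 was 99.7, 26.2, 81.9 and 107 CPM and Spry1 was 5.34, 6.18, 16.8 and 12.6 CPM. Both overlapped with Sham. Dusp4 was 0.47, 3.17, 5.56 and 5.34 CPM, replicate 1 being lowest once more, and Spry2 had 16, 13, 3 and 2 counts.

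In CD11clo no member was called either. Of 12301 genes tested edgeR called 0%, with 1102 at an unadjusted p under 0.05, and DESeq2 called 103. Dusp5 was 316, 280, 157 and 270 CPM in RAS against 179 to 299 CPM in Sham, a log2 fold change of 0.11 ± 0.27. Dusp2 was 197, 191, 200 and 229 CPM with a fold change of 0.16 ± 0.27, and Dusp6 was 328, 131, 251 and 198 CPM with -0.08 ± 0.32. Spred1 was 64.5, 61.7, 178 and 97.7 CPM in RAS, all above the highest Sham library at 54.7 CPM. Its fold change was 0.91 ± 0.37. The library at 178 CPM, replicate 3, had a macrophage marker sum of 13732 CPM against 5260 to 6536 CPM in the other 3, and the neutrophil marker sum was 464 to 2137 CPM in RAS against 204 to 1095 CPM in Sham. Within that list S100a8, S100a9 and Cxcr2 had higher group medians in RAS, while that of Mmp8 was lower (121 against 270 CPM). Ly6g stayed at or under 0.452 CPM in CD11clo. The part of such transcripts in the Spred1 values was not tested. Spry1 was 2.88, 10.97, 9.72 and 10.5 CPM, Dusp4 was 0.10, 2.15, 3.84 and 1.82 CPM and Spry2 had 0, 6, 3 and 0 counts. For a library at 0, 3 counts correspond to between 0.161 and 0.435 CPM across the series.

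Whether populations responded unequally to RAS was tested with interaction terms. KRM and CD11clo differed in Dusp5, by 3.47 ± 0.48 on the log2 scale, and it was the 1 member called of 7, with 0.245% of 13877 genes called. This call was kept in 6 of the 14 fits that left out 1 library, and those 6 called 0.0289% to 16.1% of all genes. Spry2 (6.25 ± 1.43), Spry1 (4.26 ± 1.27), Dusp2 (1.03 ± 0.35), Dusp4 (3.13 ± 1.55), Dusp6 (-0.97 ± 0.48) and Spred1 (-1.39 ± 0.46) were not called by edgeR. The Spry2 fold rests on 1 or 2 counts in each KRM Sham library and depends on the prior count. Without KRM RAS replicate 1 the members called were Dusp5, Dusp6, Spry1 and Spry2, beside 16.1% of all genes. KRM and CD11chi differed by 1.55 ± 0.71 in Dusp5, by 4.61 ± 1.30 in Spry1 and by 3.88 ± 1.199 in Spry2, with no member called by edgeR. Without KRM RAS replicate 1, Spry1 (5.17) was called, beside 7.40% of all genes. With all libraries of KRM and CD11chi, edgeR called 0% of 14137 genes (2996 at an unadjusted p under 0.05). DESeq2 called 1228, of which 1 was a member. CD11chi and CD11clo differed by 1.99 ± 0.68 in Dusp5 and by -1.23 ± 0.91 in Dusp6. No member was called, edgeR called 0% of 13540 genes (900 at an unadjusted p under 0.05) and DESeq2 called 15.

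Within RAS kidneys, KRM held less Dusp5 than CD11chi (-2.47 ± 0.56) and CD11clo (-1.74 ± 0.39), and the libraries did not overlap in either comparison. Dusp2 was also lower than in CD11clo (-0.92 ± 0.19). Against CD11chi 1 member of 7 was called, beside 9.23% of 13226 genes, and Dusp2 at -0.80 ± 0.24 was not called. Against CD11clo 2 members of 7 were called, beside 9.17% of 13179 genes. With the replicate block no member was called against CD11chi or CD11clo, beside 0.764% and 8.48% of all genes. Replicate numbers were not taken as paired in RAS kidneys. Limma on the second table called none of the 7 in either comparison, beside 4.08% of all genes against CD11chi and 5.24% against CD11clo. With its column for KRM RAS replicate 1 left out, a choice made after seeing the data, limma called Spry1 against CD11chi, beside 16.3% of all genes, and Dusp5, Spry1 and Spry2 against CD11clo, beside 24.95% of all genes. The Dusp5 and Dusp2 calls against CD11clo were kept only without KRM RAS replicate 1 and without CD11clo RAS replicate 3, fits with 23.0% and 16.2% of all genes called. The Dusp5 call against CD11chi was kept only without CD11chi RAS replicate 1 and without KRM RAS replicate 1, fits with 17.6% and 19.6% of all genes called. Spry2 was above every CD11chi and CD11clo RAS library in all 3 KRM RAS libraries. Between CD11chi and CD11clo, edgeR called none of the 6 members that passed the filter, beside 8.27% of 12305 genes. Dusp5 differed by 0.75 ± 0.42 and Dusp6 by -1.28 ± 0.61. Leaving out CD11chi RAS replicate 1 brought calls for Dusp5 (1.04) and Dusp6 (-2.35), beside 17.3% of all genes.

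Across the 6 groups, Dusp5 means ran from CD11chi RAS (433 ± 231 CPM, SD, n = 4) through CD11clo RAS (256 ± 68, n = 4), CD11clo Sham (237 ± 60, n = 3), CD11chi Sham (100 ± 55, n = 3) and KRM RAS (74.1 ± 29.8, n = 3) to KRM Sham (6.48 ± 2.08, n = 4). Neighbours in this order overlapped except CD11clo Sham with CD11chi Sham and KRM RAS with KRM Sham. For Dusp6 the order ran from KRM Sham (437 ± 34 CPM, SD, n = 4) to CD11chi RAS (93.5 ± 99.004, n = 4), with the 4 groups between at 202 to 240 CPM. Only the step from KRM Sham to CD11clo Sham was free of overlap. Dusp2 ran from CD11clo RAS (204 ± 17 CPM, SD, n = 4) to KRM Sham (46.9 ± 10.9, n = 4), and only its last step, from KRM RAS, was free of overlap. For Spred1 and Dusp4 every pair of neighbours overlapped. Spry2 was separated only at the top, between KRM RAS (3.23 ± 0.86 CPM, SD, n = 3) and CD11chi RAS (1.04 ± 0.89, n = 4), and Spry1 only at the bottom, between CD11clo Sham (4.86 ± 2.49 CPM, SD, n = 3) and KRM Sham (1.28 ± 0.58, n = 4).

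Over the 21 libraries, log2 CPM of Dusp5 followed that of Dusp2 with Pearson's r of 0.889 and ran against that of Dusp6 (-0.631) and Spred1 (-0.609). Dusp6 ran against Dusp4 (-0.788) and Spry1 (-0.623). These correlations mix populations, treatments and libraries with unequal marker sums, and they are given as descriptions only. Among 14504 genes, those most like Dusp5 were Capg (r = 0.976), S100a10 (0.970) and 4930523C07Rik (0.968). Those most like Dusp2 were Tubb6 (0.934), Rftn1 (0.915) and Nr4a1 (0.905), and those most like Dusp6 were Abcc5 (0.967), Fyb (0.941) and Tmem115 (0.935). Spred1 was nearest to Cep68 (0.954), A130022J15Rik (0.942) and Gtf2a1 (0.936), and Dusp4 to F3 (0.925), Zfp532 (0.883) and Zbtb7c (0.878). Spry2 was nearest to Faah (0.863), Plcd4 (0.836) and Zfp827 (0.826). Spry1 was nearest to Pdgfrb (0.920), Cav1 (0.902) and Pde12 (0.894), and Pdgfrb, a receptor of pericytes and fibroblasts, is also 1 of the 5 fibroblast and pericyte markers.

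**Figure D4:**
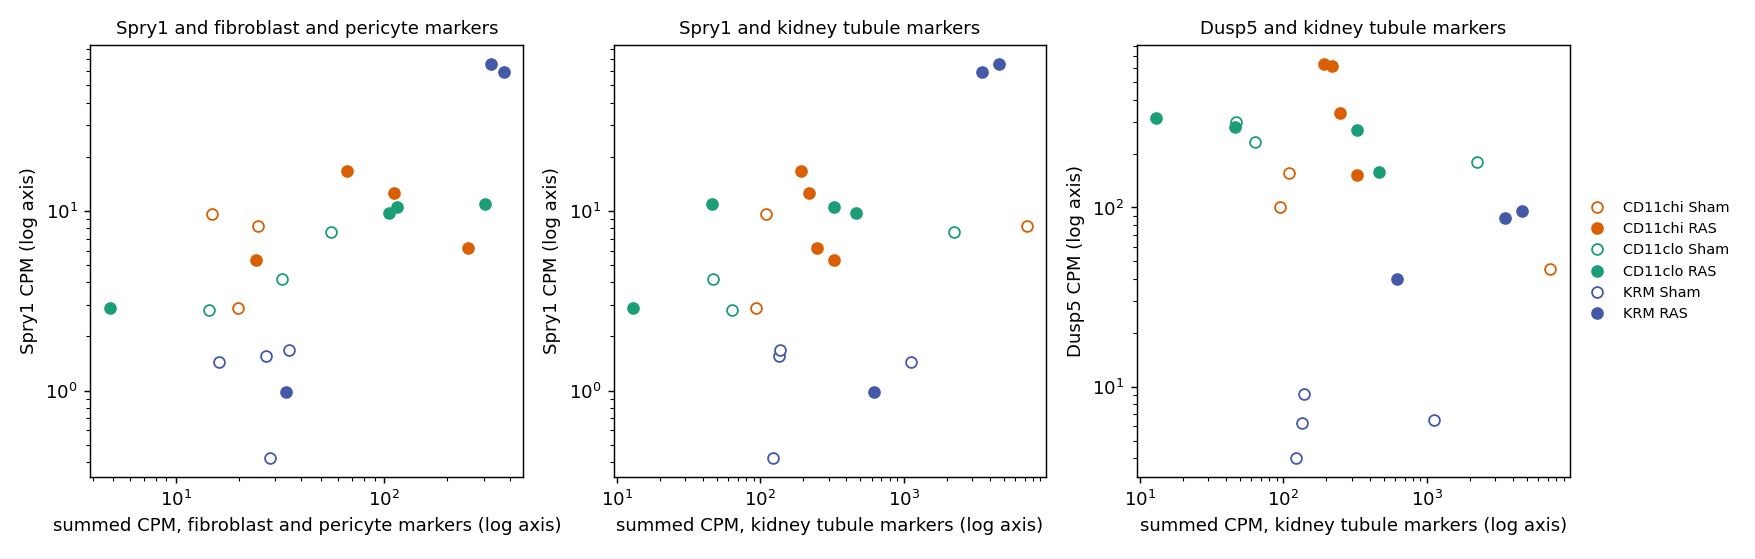
Spry1 against the summed CPM of 5 fibroblast and pericyte markers (left) and of 8 kidney tubule markers (middle), and Dusp5 against the tubule markers (right), in 21 libraries on log axes, with RAS libraries filled. KRM RAS replicates 2 and 3 stand at the top right for Spry1 at 65.5 and 59.1 CPM, while KRM RAS replicate 1 at 0.98 CPM lies with the KRM Sham libraries.

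Of the other phosphatases of the family, Dusp1, which acts mainly on p38 and JNK, was the most abundant at 1640 to 6725 CPM over all libraries and was called in none of the 9 comparisons between groups. KRM from Sham kidneys held more Dusp8 (2.66 ± 0.31, adjusted p = 0.000298 by edgeR) and Dusp16 (1.496 ± 0.14, adjusted p = 0.000113) than CD11clo, both phosphatases of JNK and p38. They held less of the ERK phosphatase Dusp7 (-0.72 ± 0.15, adjusted p = 0.00492). Dusp10 was called in no comparison between groups, and Dusp9 stayed at or under 4.43 CPM. Spred2 was higher in KRM than in CD11clo from Sham kidneys (1.60 ± 0.30, adjusted p = 0.00333 by edgeR). Spred3 stayed at or under 3.33 CPM and Spry4 at or under 7.38 CPM, and neither was called. Calls in this paragraph are those of edgeR, which called none of these genes for RAS against Sham in any population. Spry3 was not analysed here.

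The wider pathway was read from 7 lists with 74 genes found. Between KRM and CD11clo of Sham kidneys, 41 of 64 tested pathway genes were called, 12 higher and 29 lower in KRM, beside 41.8% of all genes. The median log2 fold change of these 64 was -0.42, against -0.04 for all genes. Of the ERK cascade itself, 13 of 17 genes were called and 12 of them were lower in KRM. Higher in KRM were the cell cycle gene Ccnd1 (2.93 ± 0.34, adjusted p = 0.000289 by edgeR) and the ETS factor Etv5 (2.59 ± 0.16, adjusted p = 1.24e-05), which are both ERK-responsive. Lower were the receptors Fgfr1 (-5.60 ± 0.30, adjusted p = 5.8e-06 by edgeR) and Flt1 (-4.78 ± 0.43, adjusted p = 7.23e-05). Fosl1, an AP-1 gene induced by ERK, had 0 counts in all 4 KRM Sham libraries and was at least 22.8-fold lower than in CD11clo Sham, taking 3 counts over the KRM group as the floor.

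Against CD11chi of Sham kidneys, 8 of 62 tested pathway genes were called, 1 higher and 7 lower in KRM, beside 5.12% of all genes. Myc was higher (0.84 ± 0.16, adjusted p = 0.0308 by edgeR). Fgfr1 (-4.76 ± 0.40, adjusted p = 0.00314), Kit (-4.10 ± 0.66, adjusted p = 0.0181) and Flt1 (-3.67 ± 0.39, adjusted p = 0.00538) were the most reduced among those called by edgeR. With the replicate block, 2 pathway genes were called beside 0.718% of all genes, Fgfr1 (adjusted p = 0.0439) and Dok2 (adjusted p = 0.0421), and the calls of Myc (0.174), Kit (0.0848) and Flt1 (0.0717) were lost. The count was 18 without CD11chi Sham replicate 3, 8 without CD11chi Sham replicate 2, and 3 or 4 on leaving out any 1 of the others, beside 13.6%, 6.95% and 1.27% to 1.84% of all genes. CD11chi of Sham kidneys held more Ccnd1 (3.85 ± 0.48, adjusted p = 0.0296 by edgeR) and Kit (3.47 ± 0.56, adjusted p = 0.0479) than CD11clo, 2 of 66 tested pathway genes, beside 1.52% of all genes. With the replicate block 6 were called, Ccnd1 and Kit among them, beside 4.915% of all genes. Without CD11chi Sham replicate 3 the count was 8, beside 5.70% of all genes, and on leaving out any 1 of the other 5 libraries edgeR called no gene at all (1272 to 2034 at an unadjusted p under 0.05).

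RAS changed 11 of 62 tested pathway genes in KRM, 10 higher and 1 lower, beside 9.7% of all genes. The median of these 62 was 0.05, against 0.02 for all genes. Of growth factor receptors and ligands, 6 of 12 tested were called and all 6 were higher, while none of the 17 genes of the ERK cascade was called. Hbegf, a ligand of the EGF receptor, had the largest fold change among the genes called (8.27 ± 1.52, adjusted p = 0.027 by edgeR). It averaged 160 ± 140 CPM (SD, n = 3) in RAS, with its lowest library at 1.57 CPM. Kit (6.03 ± 1.01, adjusted p = 0.0231) and Met, the receptor for hepatocyte growth factor (4.40 ± 1.08, adjusted p = 0.0449), followed by edgeR, and Etv5 fell by 0.65 (SE 0.12, adjusted p = 0.027). The lowest KRM RAS library held 4.52 CPM of Kit against 82.1 CPM in the highest, and these values went with the marker sums above. Their part was not tested. Leaving out KRM RAS replicate 1 made 47 pathway genes called, beside 50.2% of all genes, and leaving out any of KRM RAS replicates 2 and 3 or KRM Sham replicates 1, 2 and 4 made 0, beside 0.204% to 0.338%.

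The ERK-responsive genes Egr2 and Ier3 were among those that rose with RAS in KRM, and the context lists moved in both directions. Of 12 immediate early and dissociation stress genes, 5 were called in KRM, beside 9.7% of all genes, with Nr4a1 and Btg2 higher and Jun, Hspa1a and Hspa1b lower in RAS. The summed level of that list was 30682 to 45996 CPM in KRM Sham and 22318 to 25889 CPM in KRM RAS. Of 10 NF-kB response genes, 4 were called, with Icam1, Il1b and Tnfaip3 higher and Ccl3 lower. The summed level of these 10 was 4283 to 7134 CPM in KRM Sham, 7661 and 8953 CPM in KRM RAS replicates 2 and 3, and 3713 CPM in KRM RAS replicate 1, below every KRM Sham library. Replicate 1 was also the lowest RAS library in CD11chi (3356 CPM against 11156 to 15189) and in CD11clo (4564 CPM against 10338 to 15520).

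EdgeR called no pathway gene for RAS against Sham in CD11chi (67 tested) or CD11clo (68 tested), while DESeq2 called 3 in CD11chi, beside 1.39% of all genes. Between populations of RAS kidneys, KRM against CD11chi gave 5 of 70, beside 9.23% of all genes, with Met higher (3.32 ± 0.85, adjusted p = 0.0494 by edgeR) and Fgfr1 (-3.30 ± 0.68, adjusted p = 0.0337), the adaptor Dok2 (-3.24 ± 0.37, adjusted p = 0.00802) and Ccnd1 (-1.86 ± 0.45, adjusted p = 0.0436) lower. The count was 14 without KRM RAS replicate 1 and 11 without CD11chi RAS replicate 1, 1 without any of CD11chi RAS replicates 2, 3 and 4, and 0 without KRM RAS replicate 2 or 3, where the Met call was lost with the rest. The shares of all genes called were 19.6%, 17.6%, 0.351% to 1.56% and 0.103% to 0.177%. KRM against CD11clo gave 7 of 68, beside 9.17% of all genes, all lower, led by Csf3r (-2.95 ± 0.50, adjusted p = 0.0252 by edgeR), Csf1 (-2.70 ± 0.54, adjusted p = 0.0339) and Dok2 (-2.32 ± 0.39, adjusted p = 0.0252). The count was 22 without KRM RAS replicate 1, 14 without CD11clo RAS replicate 3, 1 without CD11clo RAS replicate 4, and 0 without KRM RAS replicate 2, KRM RAS replicate 3 or CD11clo RAS replicate 2. The shares of all genes called were 23.0%, 16.2%, 0.686% and 0% to 0.346%. Without KRM RAS replicate 2 or 3 edgeR called none of all the genes tested (2854 and 2862 at an unadjusted p under 0.05). CD11chi against CD11clo gave 9 of 67, beside 8.27% of all genes. Kit (4.11 ± 0.95, adjusted p = 0.0305), Ccnd1 (2.85 ± 0.71, adjusted p = 0.0399) and the RAF inhibitor Pebp1 (1.08 ± 0.27, adjusted p = 0.0399) were higher by edgeR. Csf3r (-4.01 ± 0.86, adjusted p = 0.0234), Csf1 (-3.56 ± 0.44, adjusted p = 0.00366) and Met (-2.10 ± 0.40, adjusted p = 0.017) were lower by edgeR. The count was 18 without CD11chi RAS replicate 1, 9 without CD11clo RAS replicate 3, and 2 to 5 on leaving out any 1 of the others, beside 17.3%, 8.13% and 2.02% to 4.95% of all genes.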

How the data were processed

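RNA from sorted kidney macrophages was made into libraries with a SMART-Seq v4 low-input kit and Nextera XT, which do not mark strand, and the authors aligned reads with OSA to mm10 and Ensembl genes. Per the labels their processing notes name mm10 and DESeq2. The deposited count table holds estimated counts per gene with fractions, which were rounded and summed over lines sharing a symbol (37620 lines, 34236 symbols). A second deposited table, called TPM by its description, holds log2 values that the authors normalized, whose exact offset is not given in the sources used here. It served only as an alternative, because the column of KRM RAS replicate 1 did not correspond between the tables (r = 0.09 against 0.916 to 0.966 for the others), and either column may be the mismatched one.

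Libraries were grouped by their labels, and all columns were matched by title. CPM used TMM factors over 21 libraries. Each comparison was fitted with edgeR 4.0.16 (R 4.3.3) by quasi-likelihood F tests, two-sided, on its own groups, after filterByExpr (minimum count 10, minimum total 15). P-values were adjusted by Benjamini-Hochberg over all genes tested, and genes under 0.05 were called. SEs are those of log2 fold changes. Correlations used log2 CPM with a prior count of 2. Depth was 6891148 to 18592395 counts. At these depths 3 counts, the limit a count of 0 allows, are 0.161 to 0.435 CPM. Intervals and floors cover counting error only. Scripts were tested on simulated data.

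Replicate numbers were checked by correlating same-numbered libraries' deviations from group means. In the Sham comparisons every pair exceeded 0.1 (lowest 0.201), so the numbers were taken as paired there. In the others at least 1 pair did not. The labels do not state a pairing. In Sham kidneys 5 of 6 libraries (KRM against CD11chi), 6 of 6 (KRM against CD11clo) and 2 of 6 (CD11chi against CD11clo) correlated best with their own number. The highest r there was that of replicate 3 each time (0.588, 0.542 and 0.647). Alternatives were RLE factors, no filter, 1 fit over 6 groups, each library left out, DESeq2 1.42.0, the replicate block, limma 3.58.1 fitted to the log2 values and, chosen after seeing the data, limma without KRM RAS replicate 1.

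The 7 genes, the pathway lists (147 distinct genes with markers, 146 found, 3 under an older symbol) and the cell type markers were chosen with earlier results of these data known. Named pathway genes were up to 3 per direction and comparison with the largest fold change among those called, all other MAP kinase phosphatases and Sprouty or Spred genes, and the 3 genes most like each member. Egr2, Ier3 and the context genes were named after their values were seen. Positions are from GENCODE vM21 and promoters from RefSeq, both GRCm38, the same build as mm10.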

Additional observations from a re-analysis of the deposited data

Results flagged for a closer look

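In groups of 4 libraries, the members and their relatives gave 4 of 47 tested sets with a library far from the rest. The rule flags about 1 in 20 by chance only where values are independent and normally spread. Low counts of related genes in shared libraries are not, so no excess is read from this. Dusp6 in CD11chi RAS replicate 1 was 241 CPM, against 34.996 to 60.7 CPM in the other 3. Dusp7 in the same library was 41.7 CPM, against 14.7 to 19.3 CPM. Spry1 in CD11clo RAS replicate 1 was 2.88 CPM, against 9.72 to 10.97 CPM. Dusp9 in CD11clo RAS replicate 3 was 0.452 CPM, and the other 3 libraries had 0 counts. Any count above 0 beside 3 libraries at 0 would have been flagged.

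The response of Dusp5 to RAS differed between KRM and CD11clo by 3.47 on the log2 scale. Dusp5 belongs to a set chosen with these data in view, so this value is a description and not support. All 3 KRM RAS libraries were above all 4 KRM Sham libraries, and the CD11clo groups overlapped.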

How the results depend on the processing

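All 197 values of the 14 called member folds under the alternatives kept their direction, and of 1166 values of all member folds 1125 did, while 49 moved by over 1 SD. Many of these came from limma on the log2 table: for RAS in KRM the log2 fold change was 1.68 for Spry2 and 1.03 for Dusp4, against 4.89 and 3.56 in edgeR, Dusp6 was called at -1.94 against -1.01 uncalled, and Spry2 in the KRM minus CD11clo response was 2.22 against 6.25. The 84 group CPM values under other scalings moved by less than 1 SD. Counts of called genes were less stable, and the cause was not tested. Below, member and pathway counts are numbers of genes called.

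With DESeq2, members were 2 against 1 for KRM against CD11chi in RAS kidneys, 3 against 1 in Sham kidneys, 1 against 0 for RAS in CD11chi, 1 against 0 for the KRM minus CD11chi response and 4 against 1 for KRM minus CD11clo. The shares of all genes called were, in that order, 19.5%, 12.1%, 1.39%, 8.38% and 9.25% with DESeq2. In the main fits they were 9.23%, 5.12%, 0%, 0% and 0.245%. Pathway genes with DESeq2 were 18 against 9 (CD11chi against CD11clo, RAS), 7 against 2 (the same pair, Sham), 13 against 5 (KRM against CD11chi, RAS), 14 against 8 (the same pair, Sham), 20 against 7 (KRM against CD11clo, RAS), 3 against 0 (RAS in CD11chi), 29 against 11 (RAS in KRM), and 8 and 13 against 0 for the KRM minus CD11chi and KRM minus CD11clo responses. DESeq2 called 14.1%, 7.79%, 19.5%, 12.1%, 22.5%, 1.39%, 26.0%, 8.38% and 9.25% of all genes in these. With 1 fit over 6 groups, members were 2 against 1 and 3 against 5 for KRM against CD11chi and CD11clo in Sham kidneys, and pathway genes 9 against 5 and 14 against 7 for the same pairs in RAS kidneys. It called 4.38% and 23.8% of all genes for these pairs in Sham kidneys, against 5.12% and 41.8% in the main fits. In RAS kidneys it called 14.7% and 12.7%, against 9.23% and 9.17%. That fit, RLE factors and no filter each gave 1 pathway gene against 0 for the KRM minus CD11clo response. No filter gave 1 against 2 (CD11chi against CD11clo) and 5 against 8 (KRM against CD11chi) in Sham kidneys, beside 0.483% and 1.96% of all genes.

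Limma on the log2 table gave 0 members for KRM against CD11chi and against CD11clo in RAS kidneys and 4 for the KRM minus CD11clo response. It called 4.08%, 5.24% and 10.4% of all genes in these. Pathway genes were 1 for CD11chi against CD11clo in Sham kidneys, 1 and 4 for KRM against CD11chi and CD11clo in RAS kidneys, 20 for RAS in KRM, and 2 and 15 for the KRM minus CD11chi and KRM minus CD11clo responses. Without KRM RAS replicate 1, an alternative chosen after seeing the data, these became 13, 23, 42, 4 and 22 in the last 5. Members were 1 and 5 for the 2 responses. Limma without that library called 16.29%, 24.95%, 52.45%, 7.803% and 28.05% of all genes in the same 5 comparisons, in that order. For the 2 responses the main fits called 0% and 0.245%.

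With the replicate block, members were 1 against 0 for CD11chi against CD11clo in RAS kidneys, and 0 for KRM against CD11chi and CD11clo in RAS kidneys, for RAS in KRM and for the KRM minus CD11clo response. The shares of all genes called were 10.2%, 0.764%, 8.48%, 0.327% and 0.00721% in that order. Pathway genes with the replicate block were 15 (CD11chi against CD11clo, RAS), 6 (the same pair, Sham), 3 and 2 (KRM against CD11chi, RAS and Sham) and 1 (RAS in KRM). Here the shares of all genes were 10.2%, 4.915%, 0.764%, 0.718% and 0.327%. Among comparisons taken as unpaired, same-numbered libraries correlated at -0.196 to 0.505, and 0 to 6 libraries of a comparison correlated best with their own number. Over all genes, the block gave 42 calls for RAS in KRM against 1247, 89 against 635 for KRM against CD11chi and 595 against 184 for CD11chi against CD11clo in Sham kidneys, 101 against 1221 for KRM against CD11chi in RAS kidneys and 1 against 34 for the KRM minus CD11clo response. DESeq2 gave 4041, 1687, 1051, 3034 and 1377 for these, 3488 against 1208 for KRM and 2021 against 1018 for CD11chi, each against CD11clo in RAS kidneys.

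Leaving out 1 library, members ranged from 0 to 2 (CD11chi against CD11clo, RAS), 0 to 3 (KRM against CD11chi, RAS), 1 to 4 (the same pair, Sham), 0 to 3 (KRM against CD11clo, RAS), 1 to 6 (RAS in KRM), and 0 to 1 and 0 to 4 for the KRM minus CD11chi and KRM minus CD11clo responses. Pathway genes ranged, in that order, from 2 to 18, 0 to 14, 3 to 18, 0 to 22, 0 to 47, 0 to 9 and 0 to 24, and from 0 to 8 for CD11chi against CD11clo in Sham kidneys. Shares of all genes called in the first 4 of these were 2.02% to 17.3%, 0.103% to 19.6%, 1.27% to 13.6% and 0% to 23.0%. In the rest they were 0.204% to 50.2%, 0% to 7.40%, 0% to 16.1% and 0% to 5.70%. The highest counts came without CD11chi RAS replicate 1, CD11chi Sham replicate 3 or KRM RAS replicate 1. Depth limits Spry2 and Dusp4, which had under 20 counts in most Sham libraries.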
